A study of Mus musculus with 6 samples.

Results

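The 10 genes described here encode the heat shock factor and the main cytosolic and mitochondrial chaperones of the mouse cell, namely Hsf1, Hspa1a, Hspa1b, Hspa8, Hsph1, Dnajb1, Hsp90aa1, Hsp90ab1, Hspd1 and Hspe1. They were taken by gene name from 54532 genes, and each name matched a single entry. All 10 were abundant enough to be tested, among 14807 genes in all. The libraries came from neutrophils of mouse bone marrow, 3 from wild-type (WT) and 3 from progranulin knockout (PGRN KO) mice, both given as strain C57BL/6J. Every culture was kept for 2 h and then challenged with live Candida albicans for 6 h, so no unchallenged neutrophils are compared here. The neutrophils were selected with beads against Ly-6G. The PGRN KO mice and the WT mice came from different suppliers, so genotype and mouse source cannot be told apart. The sources used here do not state the number of mice behind a culture. The comparison asks whether the loss of progranulin, a secreted growth factor precursor, went together with another level of chaperone transcripts in neutrophils that had met the fungus.

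Chaperones bind proteins that are unfolded or newly made and help them reach their final shape. In the cytosol, J-domain proteins such as Dnajb1 hand clients to HSP70, which holds and releases them as it splits ATP, and HSP110 (Hsph1) lets HSP70 exchange its nucleotide. Clients that need more help, many kinases among them, pass on to HSP90. In the mitochondrial matrix the chaperonin HSP60 (Hspd1) forms a chamber that HSP10 (Hspe1) closes like a lid. HSF1 is the transcription factor that raises many of these genes when proteins are damaged. It binds heat shock elements, which are repeats of GAA and its reverse complement TTC with a pair of free bases between them.

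The promoters of the members show which of them carry such an element. Of the 10 members, 6 had a promoter in the RefSeq table (build GRCm38.p6, 250 bases before to 50 after the start). These were Hspa1a, Hspa1b, Hsph1, Dnajb1, Hspd1 and Hspe1. Elements of 2 units (GAANNTTC or TTCNNGAA, each its own reverse complement and so read alike on both strands) stood in 4 of the 6, against 15.1% of 32851 promoter windows of this length. Elements of 3 units, in which these 2-unit words overlap, stood in 2 of the 6, against 0.603% of windows. The 4 members with a 2-unit element include Hspa1a and Hspa1b, whose promoters are nearly identical, so their shared element is counted for each. The 120 bases before the start of Hspa1a and Hspa1b are shown because these are the members whose transcripts differed most between genotypes. The element is in capitals, at position -104 from the start, on the minus strand in chr17:34972157-34972276 and chr17:34959239-34959358.
Hspa1a: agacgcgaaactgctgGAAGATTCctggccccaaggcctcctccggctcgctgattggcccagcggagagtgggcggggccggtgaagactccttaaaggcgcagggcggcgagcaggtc
Hspa1b: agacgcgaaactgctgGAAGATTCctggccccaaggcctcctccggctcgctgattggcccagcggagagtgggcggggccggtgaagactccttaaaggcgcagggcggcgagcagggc

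Over the 250 bases before the start, these promoters differ at 3 positions. The mitochondrial pair Hspd1 and Hspe1 lie on opposite strands of chromosome 1, and their 5′ ends overlap by 112 bases. Before the start of Hspe1, and within the annotated Hspd1 gene, stood overlapping elements of 3 units, which are shown on the plus strand in capitals because none of the other matched members had one before its start (chr1:55088053-55088082, position -89). Hsph1 had a 2-unit element on the minus strand just before its RefSeq start (chr5:149636356-149636375, position -33). A 3-unit element, TTCTGGAAAGTTC, stood at position 37 after that start. In the annotation of the expression data Hsph1 starts at 149636376, so there both elements lie within the gene.
Hspe1: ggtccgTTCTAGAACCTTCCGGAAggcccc
Hsph1: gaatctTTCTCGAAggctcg

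No 2-unit or 3-unit word was found in the windows of Dnajb1 and Hspd1. A match of letters is a description of the sequence, and binding of HSF1 was not measured.

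Depth was similar in all libraries, with 17087344 to 18821091 fragments on genes. Mitochondrial genes held 0.375% to 0.414% of fragments in WT and 0.421% to 0.522% in PGRN KO, with no overlap, and the part of this in the results was not tested. The targeted gene Grn was at 161 to 168 FPKM in WT and at 0.206 to 0.747 in PGRN KO libraries. FPKM is the number of fragments divided by gene length and by library size. The annotated gene length was used, which exceeds the longest coding transcript unevenly among the members. It was 7099 against 2104 bases for Hsf1 and 4301 against 2394 for Hspa8, but 2967 for both in Hspa1a. Levels of different genes can therefore be compared only roughly. Compared with division by plain totals of fragments, the authors' scaling shifts the PGRN KO minus WT difference of every gene by -0.12 on log2 FPKM. On log2(FPKM + 1), used for the fold changes below, the shift is smaller for genes with low FPKM. There the median log2 fold change of all genes was 0.0026 with the authors' scaling and 0.067 with plain totals. All 9 neutrophil markers were abundant in every library, with 2 called lower (Mmp8 and Csf3r), whereas with plain totals 3 were called higher and 0 lower. The shares over all genes tested were 9.95% lower and 7.94% higher, and with plain totals 6.31% lower and 14.5% higher. Markers of other cells moved too. All 5 promyelocyte markers and 9 of 12 markers of dividing cells were called higher in PGRN KO, and 5 of 8 monocyte and macrophage markers were called lower. Among B and plasma cell markers, 5 of 7 tested were called higher, as were 4 of 5 tested for basophils and mast cells, 3 of 4 for eosinophils and 4 of 5 for erythroid cells and platelets. Of 6 T and NK cell markers, Cd3e and Cd3g were at 0 in every library. Cd3d, at 0.212 to 0.779 FPKM, was the only 1 tested and was not called. In such bulk libraries a different number of cells of a type and a different amount of RNA per cell cannot be told apart.

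FPKM differed widely among the 10 genes, and their order depends in part on the gene lengths used. The constitutive HSP90 gene Hsp90ab1, the constitutive HSP70 gene Hspa8 and the inducible HSP90 gene Hsp90aa1 were the most abundant, at 181.0, 180.0 and 109.8 mean FPKM in WT. They made up 88.0% to 90.6% of the summed FPKM of the members in each library. Hsp90ab1 and Hspa8 ranked 265 and 268 among the genes tested in WT, and their values overlapped with each other in both genotypes. Dnajb1 followed at 25.7 FPKM. Hspa1b, Hspa1a, Hspd1 and Hspe1 lay between 2.99 and 11.3 mean FPKM in WT. Hsph1 and Hsf1 were the lowest, at 1.03 and 0.966 FPKM, and their values overlapped with each other in WT but not in PGRN KO. In PGRN KO the order changed at a single place, as Hspd1 stood above Hspa1b and Hspa1a, with no overlap between Hspd1 and Hspa1b in either genotype.

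**Figure D1:**
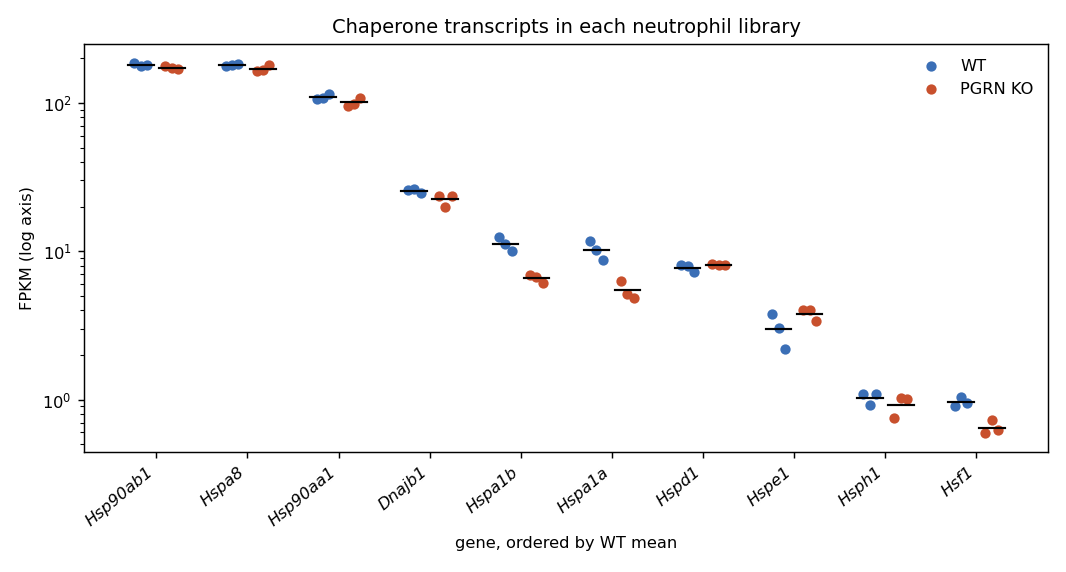
FPKM of each of the 10 chaperone genes (log axis) in the 3 WT (blue) and 3 PGRN KO (red) libraries, one point per library, with black bars at group means. Hspa1a, Hspa1b, Hsf1 and Dnajb1 are lower in every PGRN KO library than in any WT library, and Hspd1 is higher.

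At an adjusted p under 0.05 from limma, on log2(FPKM + 1), 3 of the 10 members were called lower in PGRN KO neutrophils. They were the inducible HSP70 genes Hspa1a and Hspa1b and the factor gene Hsf1. Over all 14807 genes tested, 9.95% were called lower and 7.94% higher, or 17.9% in either direction. With plain totals 2 members, Hspa1a and Hspa1b, were called lower, against 6.31% of genes lower and 14.5% higher, and voom called the same 3 members as limma on FPKM, against 8.46% lower and 20.2% higher. Of the members, 0 were called higher by limma, also at an unadjusted p under 0.05 (0 genes) and by voom on the fragments (0 genes). At an unadjusted p under 0.05, 4 members were lower, but the share of all genes at this threshold was not counted, so this count cannot be weighed. Between genotypes the libraries did not overlap for 5 members, 4 lower and 1 higher, whereas this holds for 37.7% of all genes tested, and for 19.6% in the lower direction. The median log2 fold change of the members was -0.10, against 0.00 over all genes.

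Hspa1a encodes the stress-inducible HSP70 that is nearly absent from many resting cells. Its gene (ENSMUSG00000091971, GRCm38 chromosome 17, 34969190 to 34972156, minus strand) was at 11.7, 10.1 and 8.76 FPKM in the 3 WT libraries. In the 3 PGRN KO libraries it was at 6.33, 5.18 and 4.87 FPKM. The highest PGRN KO library thus lay below the lowest WT library. WT averaged 10.2 ± 1.496 and PGRN KO 5.46 ± 0.767 FPKM (SD, n = 3 each), a ratio of 0.534. By limma the log2 fold change was -0.79 with an SE of 0.12 (adjusted p = 0.00764). These values rest on 279 to 592 fragments per library.

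Hspa1b, which encodes a nearly identical HSP70 protein, lies beside Hspa1a on chromosome 17 (ENSMUSG00000090877, 34956436 to 34959238, minus strand). It was at 12.5, 11.3 and 10.0 FPKM in WT and at 6.88, 6.68 and 6.10 FPKM in PGRN KO. Again every PGRN KO library was below every WT library. The mean fell from 11.3 ± 1.27 to 6.55 ± 0.404 (SD, n = 3 each), a ratio of 0.581, and limma gave a log2 fold change of -0.70 with an SE of 0.087 (adjusted p = 0.00357). The ratio of Hspa1a to Hspa1b was 0.937, 0.900 and 0.876 in WT and 0.920, 0.775 and 0.799 in PGRN KO, and it overlapped between genotypes (exact two-sided permutation p = 0.3). The genes cannot be fully separated by counting. Of the 2818 windows of 150 bases, the read length, along the Hspa1a transcript, 1074 also occur in Hspa1b. Counting transcripts of any other gene, on either strand, the share is 46.0% for Hspa1a and 40.5% for Hspa1b. Summed to a single entry, the pair had a log2 fold change of -0.79 (adjusted p = 0.00443 from limma). Together they held 24.3, 21.4 and 18.8 FPKM in WT and 13.2, 11.9 and 10.97 FPKM in PGRN KO. Both genes were called lower in all 17 alternative fits, among them median-of-ratios scaling, which only repeats the main fit. Their log2 fold changes ran from -0.89 to -0.69 for Hspa1a and from -0.77 to -0.59 for Hspa1b. Of 8 markers of monocytes and macrophages, 5 were called lower as well, and none was at 0. Csf1r and Adgre1 were not called (log2 fold changes -0.15 and -0.09), and Cx3cr1 lay in the other direction (0.10, not called). The summed level of the 8 ran from 147 to 151 FPKM in WT and from 111 to 128 FPKM in PGRN KO. The part of these markers in the fall of Hspa1a and Hspa1b was not tested.

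Hsf1, the regulator of the heat shock response (ENSMUSG00000022556, chromosome 15, 76477422 to 76501913, plus strand), was scarce. It was at 0.904, 1.04 and 0.954 FPKM in WT and at 0.592, 0.729 and 0.623 FPKM in PGRN KO. The groups did not overlap, and the ratio of means was 0.671. By limma the log2 fold change was -0.25 with an SE of 0.069 (adjusted p = 0.0486), a value that the added 1 FPKM makes smaller. With a pseudocount of 0.1 it was -0.51 (adjusted p = 0.0495). The call was lost in each of the 6 fits that left out 1 library (adjusted p between 0.0798 and 0.144), with scaling to plain totals (adjusted p = 0.0897), without a filter on low values (adjusted p = 0.106) and with robust variance estimation (adjusted p = 0.0514). The gene was counted from 75 to 123 fragments per library. The paralog Hsf2 had a mean of 0.465 ± 0.0876 FPKM for WT and 0.374 ± 0.0430 for PGRN KO (SD, n = 3 each), with a log2 fold change of -0.09 that did not pass (adjusted p = 0.445 from limma). Hsf4 was below the level for testing.

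Hspa8 encodes the HSP70 that cells keep at all times, also known for uncoating clathrin vesicles (ENSMUSG00000015656, chromosome 9, 40800984 to 40810087, plus strand). It was at 178, 179 and 183 FPKM in WT and at 164, 166 and 180.4 FPKM in PGRN KO, so that PGRN KO replicate 6 fell within the WT range. The log2 fold change of -0.08 did not pass (95% interval -0.20 to 0.03, adjusted p = 0.298 from limma). Its sign turned with the scaling, to 0.04 with plain totals of fragments. Of its read-length windows, 56.0% also occur in transcripts of other genes. Of these 1257 windows, 1107 occur in Gm26825, a long noncoding RNA gene at 0 FPKM in every library. Processed pseudogenes are among the other genes. Per library the inducible pair amounted to 13.6%, 12.0% and 10.3% of the Hspa8 level in WT, and to 8.07%, 7.13% and 6.08% in PGRN KO. This ratio does not depend on library scaling. It was lower in every PGRN KO library, by a mean log2 difference of -0.75, and the exact two-sided permutation p of 0.1 is the smallest that 3 against 3 libraries allow. Another member of the family, Hspa1l, which lies next to Hspa1a, was under the level for testing, at most at 0.143 FPKM in any library.

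The partners of HSP70 among the members did not pass the test. Dnajb1, the J-domain protein that stimulates HSP70 (ENSMUSG00000005483, chromosome 8, 83608193 to 83612653, plus strand), was at 25.98, 26.4 and 24.5 FPKM in WT and at 23.4, 19.97 and 23.6 FPKM in PGRN KO. The groups did not overlap, but the lowest WT and the highest PGRN KO library were close. The log2 fold change was -0.20 (95% interval -0.37 to -0.02, adjusted p = 0.119 from limma), and -0.08 with plain totals of fragments. Hsph1, the HSP110 exchange factor (ENSMUSG00000029657, chromosome 5, 149614287 to 149636376, minus strand), was at 1.09, 0.916 and 1.08 FPKM in WT and at 0.748, 1.02 and 1.00 FPKM in PGRN KO. Its groups overlapped, with a log2 fold change of -0.08 (95% interval -0.28 to 0.12, adjusted p = 0.579).

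The HSP90 genes showed no difference that passed the test. Hsp90aa1, the stress-inducible form (ENSMUSG00000021270, chromosome 12, 110690605 to 110702728, minus strand), was at 107, 108 and 115 FPKM in WT and at 96.0, 98.5 and 109 FPKM in PGRN KO. PGRN KO replicate 6 lay within the WT range. The log2 fold change was -0.12 (95% interval -0.26 to 0.02, adjusted p = 0.214 from limma), and 0.00 with plain totals of fragments. Hsp90ab1, the constitutive form (ENSMUSG00000023944, chromosome 17, 45567775 to 45573271, minus strand), was at 187, 176.6 and 179 FPKM in WT and at 177.5, 172 and 168 FPKM in PGRN KO. These groups overlapped as well, with a log2 fold change of -0.07 (95% interval -0.17 to 0.03, adjusted p = 0.321) that became 0.05 with plain totals. Read-length windows that also occur in other genes made up 36.2% for Hsp90aa1 and 0% for Hsp90ab1. Among those genes was the pseudogene Gm12346, with a mean of 2.78 FPKM. The ratio of Hsp90aa1 to Hsp90ab1 was 0.569, 0.612 and 0.640 in WT and 0.541, 0.573 and 0.644 in PGRN KO. The mean log2 difference of this ratio was -0.05 (exact two-sided permutation p = 0.8), and without PGRN KO replicate 4 it was 0.0021. Whether this ratio moved differently from that of the HSP70 genes was not tested.

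The mitochondrial chaperonin genes lay on the other side of 0. Hspd1, or HSP60 (ENSMUSG00000025980, chromosome 1, 55077835 to 55088243, minus strand), was at 8.04, 7.92 and 7.27 FPKM in WT and at 8.19, 8.07 and 8.05 FPKM in PGRN KO. The groups did not overlap, but the gap between 8.04 and 8.05 was tiny beside the spread in WT, and the log2 fold change was 0.06 (95% interval -0.07 to 0.19, adjusted p = 0.514 from limma). Hspe1, or HSP10 (ENSMUSG00000073676, chromosome 1, 55088132 to 55091307, plus strand), was at 3.75, 3.05 and 2.18 FPKM in WT and at 3.99, 3.997 and 3.38 FPKM in PGRN KO. It rested on only 55 to 107 fragments per library, its groups overlapped, and its log2 fold change was 0.28 (95% interval -0.08 to 0.63, adjusted p = 0.255). Without WT replicate 3 the log2 fold change of Hspe1 was 0.12, without WT replicate 1 it was 0.41, and with voom 0.49, none past the threshold. The library kit did not mark strand, so fragments from the overlap of these genes cannot be assigned to either. The ratio of Hspd1 to Hspe1 was 2.14, 2.60 and 3.34 in WT and 2.05, 2.02 and 2.38 in PGRN KO, with an overlap between genotypes (mean log2 difference -0.30, exact two-sided permutation p = 0.2). It was -0.14 without WT replicate 3 and -0.46 without WT replicate 1. The file lists 11 entries named as pseudogene or related sequence of a member. Of these, 9 were at 0 in all libraries, and the most abundant, Hspd1-ps3, had a mean of 1.33 FPKM.

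**Figure D2:**
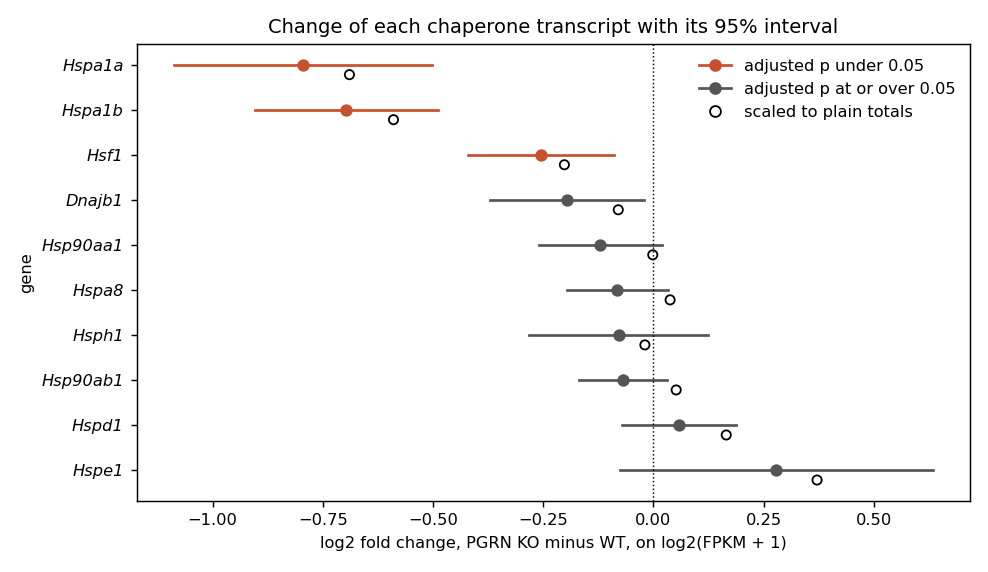
Log2 fold change (PGRN KO minus WT, on log2(FPKM + 1)) of each chaperone gene with its 95% interval from limma, in red where the adjusted p was under 0.05. Open circles give the same with scaling to plain totals of fragments, which moves Hspa8 and Hsp90ab1 above 0 and leaves Hspa1a and Hspa1b at -0.69 and -0.59.

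**Figure D3:**
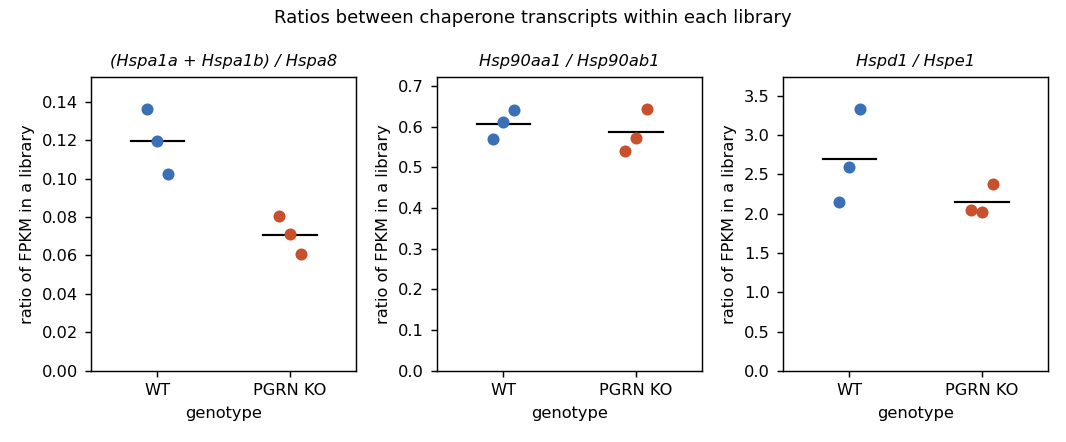
Ratios of FPKM between chaperone genes within each library (axis from 0), one point per library, with black bars at group means. The 3 PGRN KO libraries lie below the 3 WT libraries for the Hspa1a and Hspa1b sum over Hspa8, and the groups overlap for the other ratios.

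Summed over the 10 members, FPKM averaged 531 ± 5.72 for WT and 492 ± 11.8 for PGRN KO (SD, n = 3 each). With plain totals of fragments the sums were 512 ± 6.20 and 515 ± 10.3, so the direction of the total depends on the scaling. The fall of the inducible pair did not, as its sum was 20.7 ± 2.73 and 12.6 ± 1.17 with plain totals. With voom the median of all genes moved to 0.12. Relative to this shift Hspa1a was at -0.91, Hspa1b at -0.78 and Hsf1 at -0.58, while Hspa8 was at -0.08.

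Other genes known to be raised by HSF1 under heat were then followed. The list was chosen with earlier results of these data known, so its counts are a description only. Of 14 genes on this list 12 were tested, and 4 were called lower and 1 higher, with a median log2 fold change of -0.13. Over all genes tested, 9.95% were called lower and 7.94% higher. Dedd2, a death effector domain protein, was at 78.0, 79.3 and 71.3 FPKM in WT and at 52.7, 48.1 and 47.4 FPKM in PGRN KO (log2 fold change -0.61, adjusted p = 0.00163 from limma). Ier5, an early response gene whose product is known to activate HSF1, was at 242, 241 and 229 FPKM in WT and at 189.8, 152 and 148 FPKM in PGRN KO (-0.55, adjusted p = 0.0113). Zfand2a, a zinc finger protein of the arsenite response, was at 27.0, 27.3 and 25.3 FPKM in WT and at 18.8, 17.5 and 19.5 FPKM in PGRN KO (-0.49, adjusted p = 0.00269). For these genes every PGRN KO library was lower than every WT library, and the call held in all 17 alternative fits. The remaining called genes were scarcer and are named after their values were seen. These were Bag3, the HSP70 exchange factor of stressed cells (log2 fold change -0.38, adjusted p = 0.0419), and the HSP90 partner Fkbp4, which was higher (0.34, adjusted p = 0.0363). With 1 library left out, both lost the call in 5 of 6 cases, and Bag3 also with plain totals (adjusted p = 0.0884). The 7 other tested genes of the list, Dnaja1, Hspa4l, Stip1, Ahsa1, Chordc1, Cacybp and Hspb1, did not pass, with log2 fold changes from -0.18 to 0.18. Immediate early genes, which respond to many stimuli and not to heat alone, were called lower for 6 of 8, with a median of -0.68, and their summed level was 2668 to 2788 FPKM in WT and 1631 to 1999 FPKM in PGRN KO. Their part in the lower levels of Hspa1a, Hspa1b, Dedd2, Ier5, Zfand2a and Bag3 was not tested. With plain totals 3 genes of the HSF1 list were called lower and 2 higher, against 6.31% and 14.5% of all genes tested.

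Of the genes listed as regulators of HSF1, 10 were tested and 2 were called, against 17.9% of all genes tested. The deacetylase gene Sirt1 was called lower (log2 fold change -0.31, adjusted p = 0.0173 from limma) and Rpa1, a subunit of the single-strand DNA binding complex, was called higher (0.36, adjusted p = 0.0115). Rpa1 had a mean of 4.42 FPKM and is named after its value was seen. The call of Sirt1 was lost with plain totals (adjusted p = 0.0548), by which 3 genes of the list were called higher and 0 lower. That scaling called 14.5% of all genes tested higher and 6.31% lower.

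Co-chaperone genes were called in both directions. Over all genes tested, 9.95% were called lower and 7.94% higher, and with plain totals 6.31% lower and 14.5% higher. Of 13 cytosolic J-domain genes tested, 3 were called lower and 1 higher, with a median of -0.05. The lower genes included Dnaja2, a partner of Hspa8 (38.4 ± 0.976 against 31.7 ± 1.02 FPKM, SD, n = 3 each), and Dnajc5, the cysteine string protein of secretory vesicles (50.3 ± 1.58 against 42.2 ± 0.761). Dnajb4, at 2.12 ± 0.0260 and 1.60 ± 0.0735 FPKM, is named after its value was seen. Dnajc9, a histone chaperone used in replicating cells, was higher (5.41 ± 0.732 against 7.77 ± 0.573). With plain totals of fragments 1 of these genes was called lower and 3 higher. Among 9 exchange factors and partners of HSP70, Bag3 and St13 were called lower, St13 by -0.27 (adjusted p = 0.0344 from limma), which with plain totals was -0.16 (adjusted p = 0.127). With plain totals 1 gene of this list was called higher and 0 lower, and with voom 1 in each direction. Among 5 other HSP70 and HSP110 genes tested, Hspa14, which acts at the ribosome, was called higher (0.27, adjusted p = 0.031).

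Of 18 co-chaperones of HSP90, 3 were called and 15 did not pass, and the median was 0.00. Over all genes tested 17.9% were called. Ptges3, the p23 protein that holds HSP90 closed, was at 69.5, 69.9 and 70.8 FPKM in WT and at 57.9, 54.2 and 61.0 FPKM in PGRN KO (log2 fold change -0.28, adjusted p = 0.0133 from limma). Nudc was higher (0.38, adjusted p = 0.0493), as was Fkbp4. With plain totals Ptges3 did not pass (adjusted p = 0.0608), and 4 genes of this list were called, all higher. That scaling called 14.5% of all genes tested higher and 6.31% lower.

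The cytosolic chaperonin TRiC, which folds actin and tubulin, and its partner prefoldin were followed as another folding pathway of the cytosol. Of their 14 subunit genes, 5 were called and all 5 were higher in PGRN KO, with a median of 0.19. Over all genes tested, 7.94% were called higher. Cct2 was at 29.0, 29.9 and 29.8 FPKM in WT and at 36.8, 34.3 and 39.1 FPKM in PGRN KO (log2 fold change 0.30, adjusted p = 0.0133 from limma). Cct7 was at 7.42, 6.65 and 7.37 FPKM against 9.18, 8.96 and 9.25 FPKM (0.32, adjusted p = 0.0125). Cct5 and Pfdn5 were the others called above 5 FPKM, at 0.22 and 0.30. Pfdn4, which had a mean of 1.70 FPKM and is named after its value was seen, was at 0.48. With plain totals of fragments 9 of the 14 were called higher, against 14.5% of all genes tested. Markers of dividing cells moved in the same direction, with 9 of 12 called, a summed level of 232 to 240.3 FPKM in WT and 281 to 299.6 FPKM in PGRN KO, and none at 0. The promyelocyte markers summed to 129 to 144 FPKM in WT and 609 to 670.4 FPKM in PGRN KO. Their part in the higher levels of the 5 called genes was not tested. The TRiC subunit gene Cct3 lay in the other direction, at -0.14 with no overlap between genotypes, and did not pass (adjusted p = 0.215).

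**Figure D4:**
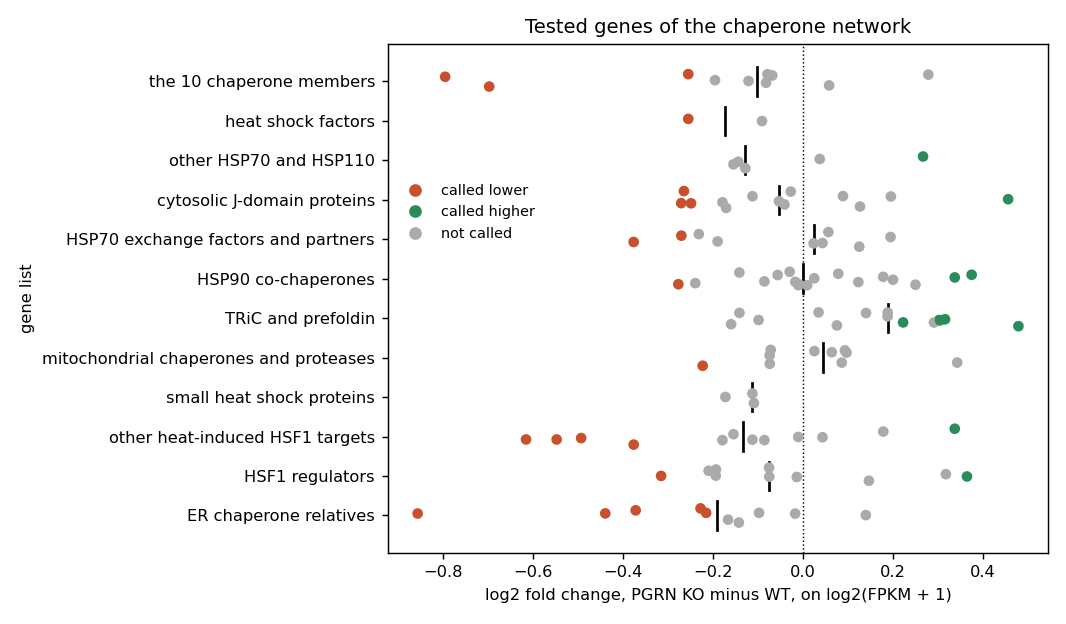
Log2 fold change (PGRN KO minus WT, on log2(FPKM + 1)) of every tested gene of the chaperone lists, one point per gene and a black bar at each list's median. Red genes were called lower and green genes higher by limma. The TRiC and prefoldin list has its 5 calls on the right, and the ER list has its 5 calls on the left.

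Of the mitochondrial chaperones and proteases, 9 of 10 did not pass, where 17.9% of all genes tested were called. Hspa9, the HSP70 of the matrix, was at 36.1, 37.0 and 40.5 FPKM in WT and at 33.5, 31.3 and 31.996 FPKM in PGRN KO (log2 fold change -0.22, adjusted p = 0.0384 from limma). The call was lost in 10 of the 17 alternative fits, among them plain totals (-0.11, adjusted p = 0.218). Trap1, the HSP90 of the matrix, had a log2 fold change of 0.34 (adjusted p = 0.0602) and passed with plain totals (0.43, adjusted p = 0.026).

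The relatives in the endoplasmic reticulum, which fold secreted proteins and answer to another stress pathway, were followed next. Of 10 genes, 5 were called and all 5 were lower, with a median of -0.19. Over all genes tested, 9.95% were called lower. Hspa5, the HSP70 of this compartment, was at 167, 169.9 and 168 FPKM in WT and at 129, 124 and 137 FPKM in PGRN KO (log2 fold change -0.37, adjusted p = 0.0038 from limma). Hyou1, its HSP110 partner, was at 39.6, 38.1 and 38.9 FPKM against 22.3, 20.7 and 20.1 FPKM (-0.86, adjusted p = 0.000287). Dnajb9, its J-domain partner, had a log2 fold change of -0.44. These calls held in all 17 alternative fits. Calr and Sdf2l1 were also called, by -0.21 and -0.23, but not with plain totals (adjusted p = 0.184 and 0.174). Hsp90b1, the HSP90 of this compartment, had a log2 fold change of -0.17 and did not pass (adjusted p = 0.136). Of the 8 monocyte and macrophage markers given above, 5 were called lower as well, with a median of -0.48, while Cx3cr1 lay in the other direction. Of 7 tested B and plasma cell markers, 5 were called higher. Xbp1 and Sdc1 also lay above 0 (0.16 and 0.02) but were not called. The part of these markers in the values of the ER genes was not tested.

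Of the small heat shock proteins, Hspb6 was the most abundant, with a mean of 2.19 FPKM, above the FPKM of Hsf1 and Hsph1. That order depends on the annotated gene lengths. In WT Hspb6 had 270 fragments, against 348 for Hsf1 and 380 for Hsph1, and in PGRN KO 264, against 256 and 375. Of 7 genes, 3 were tested, and Hspb2, Hspb3 and Hspb8 were at 0 in all libraries. The list summed to 2.68 to 3.39 FPKM over the 6 libraries, and 0 of the 3 tested passed with limma or with voom, while 1, Cryab, had an unadjusted p under 0.05.

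The genes whose level across the 6 libraries was most like the mean of the members were sought among 9241 genes of at least 1 FPKM. They were Npc2, Lgals3, Tbc1d2, Cops7a and Usf2, with a Pearson r of 0.991 to 0.996 across libraries. The 6 points share the difference between genotypes, and 199 genes had an r above 0.95, so this likeness is a description only.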

How the data were processed

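RNA from 6 neutrophil cultures was sequenced, and the genotype of each came from its label. The authors deposited FPKM values per gene. The submitters' processing notes name HISAT2 2.0.5, featureCounts 1.5.0-p3 and builds mm10 and GRCm38, whereas the methods of the paper name HISAT and HTSeq. The labels give an equal number of fungal and neutrophil cells, and the paper another ratio. FPKM multiplied by gene length gave whole fragments within 0.05 for every value above 0. Median-of-ratios factors of the deposited values were 1.00 in each library, so that this scaling is already in the deposited FPKM. The fit with this scaling is counted among the 17 alternatives, but it repeats the main fit and is no separate check.

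WT and PGRN KO were set against each other by limma 3.58.1 (lmFit, eBayes with trend, R 4.3.3) on log2(FPKM + 1). The fit covered the 14807 genes whose mean reached 0.1 FPKM. P-values were two-sided and adjusted by Benjamini-Hochberg across all of them, and a gene was called at an adjusted p under 0.05. The fold change understates the change of genes with low FPKM. Ratios within a library were compared by an exact permutation test. Intervals of 95% are from limma. Replicate numbers are not shared between genotypes, and no batch is given. As separate mice are not stated, p-values measure the spread between these cultures.

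The members and the gene lists were chosen with earlier results of these data known, so the counts called in them are a description only. Members are given in full. Of the lists, called genes with a mean of at least 5 FPKM are named, up to 6 a list. Promoters are from RefSeq. Transcript windows are from GENCODE M21. Alternatives were 2 pseudocounts, 2 filters, 3 scalings, 2 variance models, protein-coding genes alone, voom on fragments, each library left out, and Hspa1a and Hspa1b summed.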

Additional observations from a re-analysis of the deposited data

How the results depend on the processing

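No paired analysis was possible because the genotypes share no replicate numbers. The number of members called was 2 or 3 under every alternative, and Hspa1a and Hspa1b, or their sum, were called lower in each. Signs turned only for members that did not pass. Hspa8 was at 0.038 with plain totals of fragments and 0.039 with voom, Hsp90ab1 was at 0.052 with either, and Hsp90aa1 was at 0.0012 with quantile normalization. With 1 library left out in turn, the log2 difference of the Hsp90aa1 to Hsp90ab1 ratio lay between -0.12 and 0.0021, positive without PGRN KO replicate 4. Over all genes 2648 were called (1175 higher and 1473 lower), 4236 with voom (2984 and 1252), 3083 with plain totals (2149 and 934) and 1385, without PGRN KO replicate 5, to 2229, without PGRN KO replicate 4, with 1 library left out. Of the genes on the chaperone lists and the immediate early list, members left out, 32 were called, and 16, without WT replicate 2, to 27, without PGRN KO replicate 4, with 1 library left out. Among the named list genes, Hspa14, Fkbp4, Nudc, Bag3, Sdf2l1, St13 and Calr lost their call in 6 to 8 of the 17 alternatives, Sirt1 in 5, Dnajc9 and Pfdn5 in 4, Dnajc5 and Ptges3 in 3, Cct5 in 2, and Cct2 and Dnaja2 in 1. The promoter count stayed at 4 with only the part before the RefSeq start, where 1 member kept a 3-unit element. Depth limits Hsf1, Hsph1 and Hspe1, whose lowest libraries held 75, 97 and 55 fragments.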
